A study of Homo sapiens with 16 samples.

Results

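I-BET762 alone was compared with control in DU145, a long-established cell line from a human prostate cancer metastasis. I-BET762 is a small molecule that occupies the bromodomains of the BET proteins. The comparison was defined by the labels alone: the 4 libraries labelled I-BET762 were set against the 4 labelled control, which makes 8 of the 16 libraries of the series, across the 14690 genes that passed a filter on low counts out of 64792 gene identifiers. The other 8 libraries came from DU145 cells given lactate, or lactate together with I-BET762. They helped to estimate the spread of each gene, and they gave a second measurement of the inhibitor in libraries that the comparison with control does not use. The labels name neither a dose, a duration nor a vehicle. They call the replicates independent without saying what separated them, so p-values here measure the spread between these libraries, which may be partly technical. In the 4 libraries with both agents the cell line field holds names other than DU145, and the titles were followed.

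BET proteins read acetylated lysines on histones and bring the elongation kinase P-TEFb to promoters and enhancers, where it releases paused RNA polymerase II. HEXIM1 holds P-TEFb in an inactive complex with a small nuclear RNA. In many cell lines BET inhibitors raise HEXIM1 and a set of histone genes and lower MYC, interferon and inflammatory genes, which is why HEXIM1 is commonly read as a marker that such an inhibitor acted.

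Total counts ran from 13300345 to 15867437 in the libraries labelled control and from 13741178 to 16847884 in those labelled I-BET762. Levels below are CPM, the counts of a gene scaled by edgeR to a common library size. All 6 epithelial marker genes on the list were tested, and their summed level was 2740 to 3420 CPM in control and 3320 to 3430 CPM in I-BET762 libraries. KLK3, a marker of luminal prostate cells, had 0 counts in the 8 libraries, which allows up to 3 counts. Leukocyte markers summed to at most 2.66 CPM, with CD3E at 0 counts. Neuroendocrine markers summed to 50.3 to 65.9 CPM in control and 45.2 to 64.9 CPM in I-BET762 libraries, with CHGA and INSM1 at 0 counts. Luminal prostate markers summed to 31 to 41.4 and 28.4 to 33.9 CPM. Basal markers summed to 3.56 to 27 and 2.9 to 18.5 CPM, with KRT5 and KRT14 at 0 counts, and fibroblast markers to 3.94 to 4.82 and 4.66 to 7.84 CPM, with DCN and LUM at 0 counts.

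The HEXIM1 check went against the labels in replicate 2. HEXIM1 (chr17:45148502-45152101, plus strand, GRCh38) had a level of 75.7, 70.01 and 77.4 CPM in control replicates 1, 3 and 4, while the library labelled control replicate 2 held 135.1 CPM. With I-BET762 it was 148.8, 113.3 and 113.8 CPM in replicates 1, 3 and 4, while the library labelled I-BET762 replicate 2 held 89.6 CPM. The 3 inhibitor libraries of replicates 1, 3 and 4 all lay above their 3 controls, while in replicate 2 the control library was the higher. Over all 4 replicates the means were 89.6 ± 30.5 and 116 ± 24.4 CPM (SD, n = 4), and the log2 fold change was 0.38 (SE 0.19, edgeR adjusted p = 0.486). Without replicate 2 of both groups they were 74.4 ± 3.86 and 125.3 ± 20.4 CPM (SD, n = 3), with a log2 fold change of 0.75 (SE 0.14, edgeR adjusted p = 0.0524). Fitted on those 6 libraries alone it was 0.76 (SE 0.12, edgeR adjusted p = 0.0257). In lactate-treated cells HEXIM1 was 69.7 to 86.0 CPM without and 115.1 to 156.9 CPM with the inhibitor, and these 8 libraries did not overlap.

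Replicate 2 departed from the other replicates across the transcriptome and not at HEXIM1 alone. Across 14690 genes the difference between the libraries labelled I-BET762 and control correlated with the inhibitor's effect in lactate-treated cells at r = 0.42 in replicate 1, 0.35 in replicate 3 and 0.51 in replicate 4, but at r = -0.35 in replicate 2. The points are genes measured in the same libraries, and they share depth and base composition. The reason was not tested, and no label was changed. Main results are given with all libraries and without replicate 2 of both groups.

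**Figure D1:**
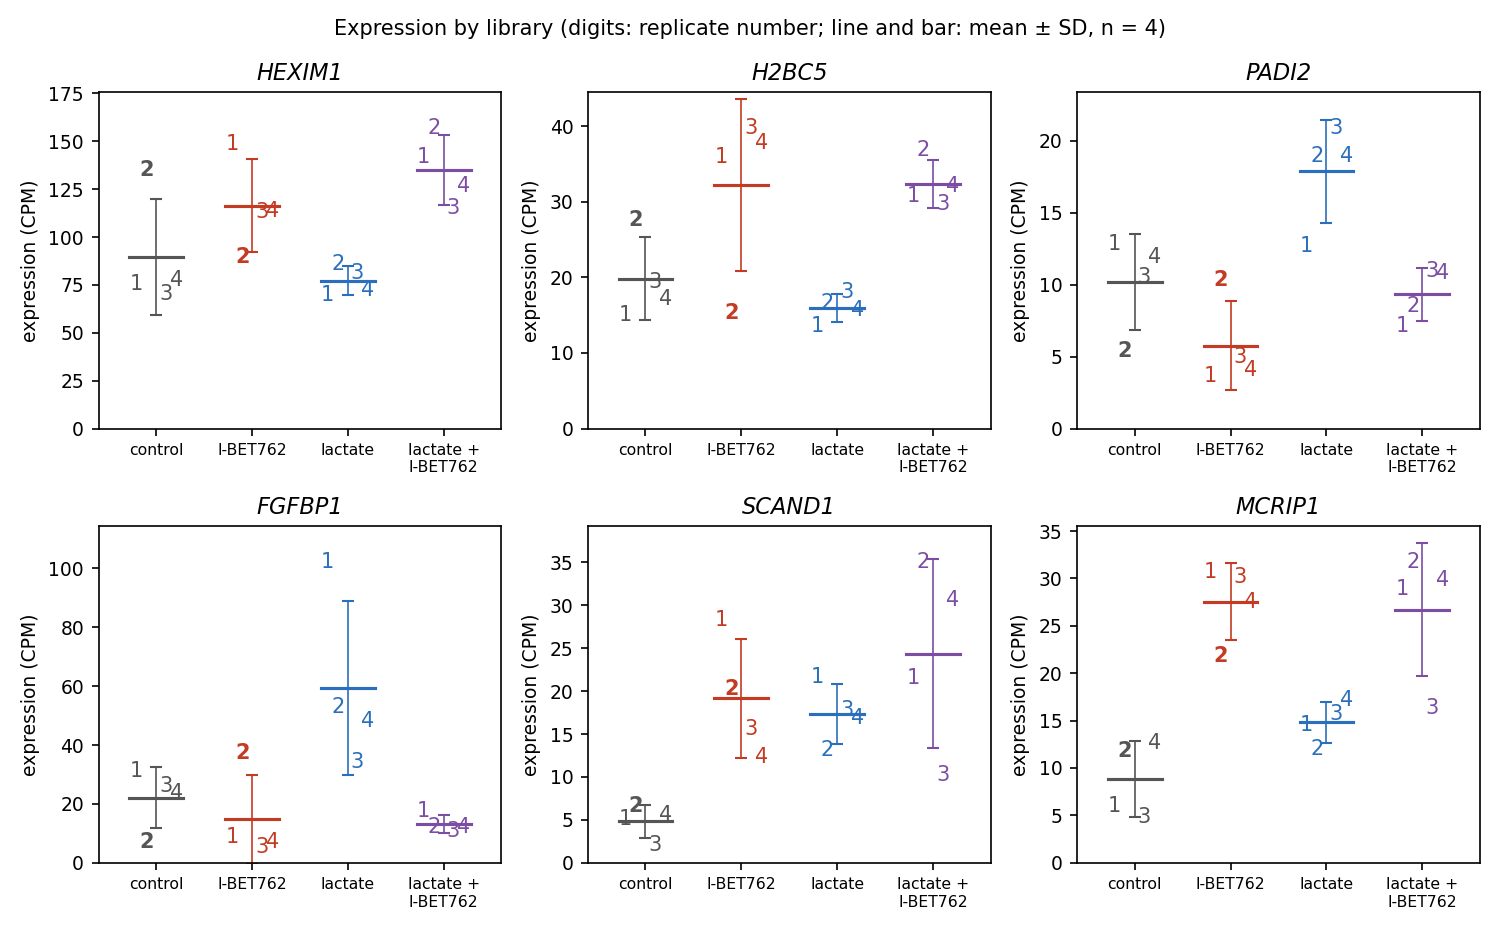
Expression of 6 genes in CPM (linear axis from 0) in each of the 16 libraries by group. Digits are replicate numbers, with replicate 2 of control and I-BET762 in bold, and lines and bars are the mean ± SD of 4 libraries. HEXIM1 and H2BC5 are lower, and PADI2 and FGFBP1 higher, in the library labelled I-BET762 replicate 2 than in the one labelled control replicate 2, while SCAND1 and MCRIP1 follow the labels in all 4 replicates.

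With all libraries as labelled, 65 genes were higher with I-BET762 and 0 were lower, which is 0.442% of the 14690 genes tested. Their adjusted p-values lay between 0.0473 and 0.0499 in edgeR's quasi-likelihood test, close under the threshold of 0.05. At an unadjusted edgeR p under 0.05, 1367 genes (9.31%) were higher and 315 (2.14%) lower. DESeq2 called 529 higher and 13 lower, and limma-voom called 0. The count rested on single libraries: it was 0 without control replicate 1, 2 or 3 or I-BET762 replicate 1, 2 or 3, it was 279 without control replicate 4, and it was 105 without I-BET762 replicate 4.

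Of the 65 genes, 56 averaged 5 CPM or more over the 8 libraries. SCAND1, which encodes a small SCAN-domain protein, rose most among these. It stood at 5.09, 6.6, 2.1 and 5.53 CPM in control replicates 1 to 4 and at 28.4, 20.3, 15.6 and 12.4 CPM in the I-BET762 replicates, a log2 fold change of 1.99 (SE 0.37, edgeR adjusted p = 0.0473). Every library labelled I-BET762, replicate 2 included, lay above every control. MCRIP1, whose product binds a transcriptional corepressor under control of the MAP kinase pathway, went from 5.98, 11.8, 4.79 and 12.6 CPM to 30.7, 21.9, 30.1 and 27.5 CPM, a log2 fold change of 1.65 (SE 0.27, edgeR adjusted p = 0.0473). CLDN3, a claudin of tight junctions, went from 2.22, 2.35, 1.05 and 3.48 CPM to 11.6, 6.96, 7.96 and 5.04 CPM, a log2 fold change of 1.79 (SE 0.36). CCDC85B, a coiled-coil protein gene, went from 2.99, 4.86, 2.56 and 5.6 CPM to 21.9, 10.3, 15.1 and 11.1 CPM, a log2 fold change of 1.88 (SE 0.39). None of these 4 genes overlapped between the labelled groups, and the same held for all 65, which the test had chosen. Over all tested genes 7.73% were higher and 3.04% lower without overlap. The next 8 by size were BBLN, MMP17, MIB2, TEDC1, EGFL7, SIVA1, NUBP2 and RABEP2, with log2 fold changes from 1.59 down to 1.26.

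Other called genes came from several processes. BSG, the chaperone that carries lactate transporters to the cell surface, was 301 to 477 CPM in control and 597 to 782 CPM with the inhibitor (log2 fold change 0.78, SE 0.16). MXD4, a MAX partner that opposes MYC, was 53.2 to 76.5 and 102 to 120.5 CPM (0.77, SE 0.15). OSGIN1, an oxidative stress response gene, was 11.8 to 21.4 and 24.5 to 45.2 CPM (1.22, SE 0.22). H1-10, a linker histone gene, was 35.2 to 70.7 and 94.6 to 118 CPM (1.06, SE 0.21). The autophagy kinase gene ULK1 (0.94), the lysosomal glucosidase gene GAA (0.90), the short-chain acyl-CoA dehydrogenase gene ACADS (1.03) and MBD3, a subunit of a nucleosome remodelling and deacetylase complex (1.10), were also called, on the log2 fold change scale. Genes of glycosaminoglycan and membrane-anchor synthesis (B3GAT3, CHPF, GPAA1), of lysosomes and vesicle traffic (ARSA, AP5Z1, RAB11B, SH3GL1), of mitochondria (MRPL12, SLC25A22), of the endoplasmic reticulum (WFS1, EMC10, NCLN), the oxysterol receptor gene NR1H2 and the Wnt signalling gene DVL1 were among the rest. The others were ABHD8, ANTKMT, C19orf25, C4orf48, CAPN10, CLEC11A, CORO1B, FKBP8, LRFN4, MFSD10, NHERF2, PLEKHH3, PNPLA6, PRR22, RPUSD1, SCNN1D, SELENOO, SIPA1, SLC39A13, SPATA2L, SPSB3, TMEM132A, TMUB1, TPRN, TWF2, VWA1, ZDHHC12, ZFTRAF1, ZNHIT2 and 2 identifiers without a symbol. Log2 fold changes of the 65 ran from 0.56 to 3.37. In the fit of 6 libraries without replicate 2, described below, the log2 fold changes were 0.78 for BSG, 0.78 for MXD4, 1.33 for OSGIN1, 1.11 for H1-10, 0.89 for ULK1, 0.94 for GAA, 1.20 for ACADS and 1.14 for MBD3. With all libraries no gene list held more than 1 called member, and most lists held none. Among lists with a called member were the MYC network (1 of 12 tested genes), oxidative stress (1 of 17), fatty acid oxidation (1 of 21) and lysosomal genes (1 of 24). Over all tested genes 0.442% were called.

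What the 65 genes shared was base composition. Their transcripts had a median GC content of 64.6% (range 55.6 to 73.2%, 63 genes with a value), against 48.1% over all tested genes, and 52 of them fell among the 1460 tested genes richest in GC. The median log2 fold change over those 1460 genes was 0.51, and over the 1460 poorest in GC it was -0.11. Per library, Spearman's rho across genes between a gene's deviation from its mean and its GC content was -0.41, -0.36, -0.55 and -0.30 in control replicates 1 to 4 and 0.17, 0.17, -0.04 and -0.18 in I-BET762 replicates 1 to 4. The 4 control libraries thus had the lower values throughout, and replicate 2 did not stand apart in this measure. In the libraries with lactate alone rho was -0.02, 0.14, 0.32 and 0.30, and with both agents 0.26, 0.39, 0.06 and 0.43. Control thus lay below every other group, so a higher GC trend than control was not particular to I-BET762. The means were -0.40 ± 0.11 for control and 0.03 ± 0.17 for I-BET762 (SD, n = 4). Their difference was 0.434 with an exact two-sided permutation p of 0.02857, the smallest that 4 against 4 allows. Without replicate 2 the difference was 0.401 (exact permutation p = 0.1, the smallest for 3 against 3). The same trend on total exon length differed less, with means of 0.20 ± 0.11 in control and 0.07 ± 0.09 with I-BET762 (exact permutation p = 0.1714).

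After each library's trend on GC content was removed, edgeR called 0 genes. At unadjusted edgeR p under 0.05 there were then 444 higher (3.02%) and 343 lower (2.33%) genes, so the excess of rises was smaller than before correction. The median log2 fold change of the 65 genes was 1.06 before and 0.49 after correction, their smallest adjusted p was 0.239, and all 65 stayed above 0 (0.15 to 3.37, with the 2 genes that have no GC value left uncorrected). At unadjusted edgeR p under 0.05, 62 of the 65 were still higher after correction, though they had been chosen in these same libraries. SCAND1 went from 1.99 to 1.52, MCRIP1 from 1.65 to 1.29 and CLDN3 from 1.79 to 0.98. H1-10 went from 1.06 to 0.31. The correction removes any change that follows GC content, whether it arose in the cells or in the libraries, and these cannot be told apart here.

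**Figure D2:**
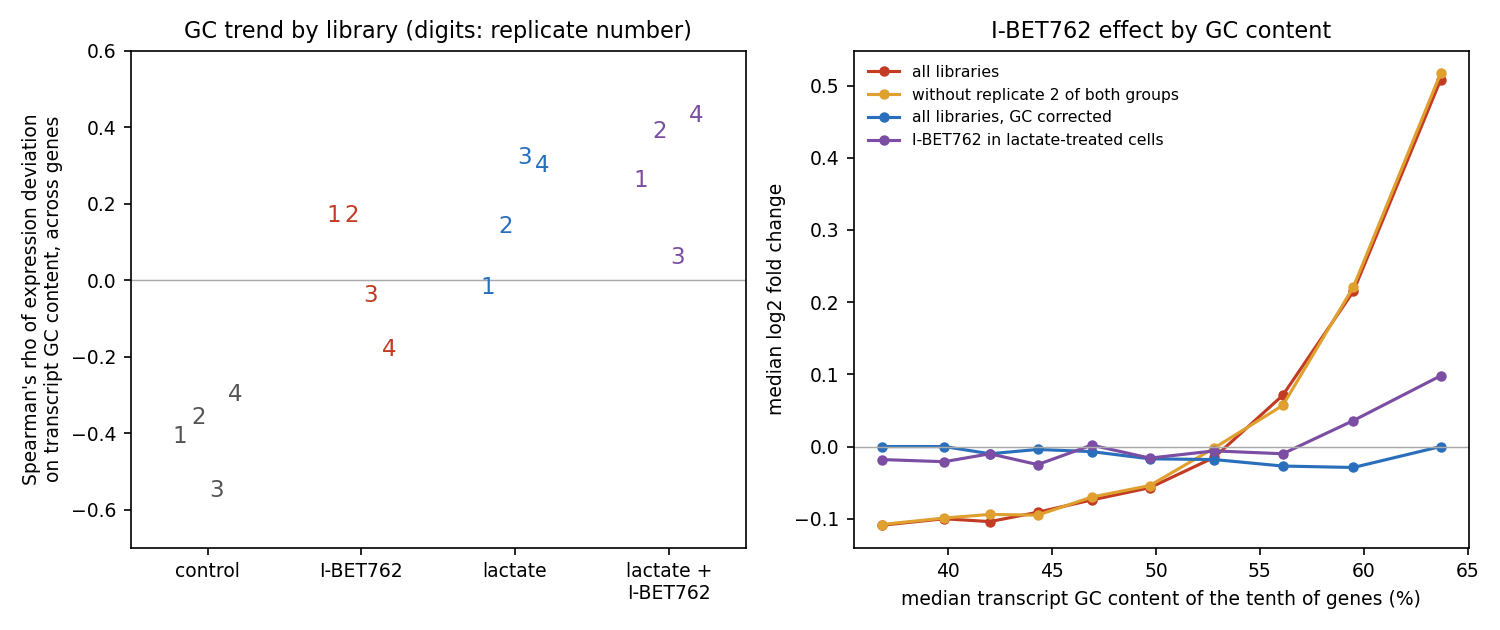
Left, Spearman's rho across genes between expression deviation and transcript GC content for each library, with digits for replicate numbers: the 4 control libraries lie from -0.55 to -0.30 and the 4 I-BET762 libraries from -0.18 to 0.17. Libraries with lactate alone lie from -0.02 to 0.32 and those with both agents from 0.06 to 0.43. Right, median log2 fold change in 10 bins of genes ordered by GC content (%), for 4 fits: it reaches 0.51 in the richest bin with all libraries and 0.52 without replicate 2, against 0.00 after correction and 0.10 for the inhibitor in lactate-treated cells.

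Promoters are shown for HEXIM1, for the 4 genes with the largest rises among those of the 65 that averaged 5 CPM or more, and for a pair of the histone genes described next, so that their composition can be compared. Sequences are the 250 bases before the RefSeq start site on GRCh38.p14, 5′ to 3′ on the gene's strand, and capitals mark motif matches on either strand. The motifs were the GC box with the letters GGGCGG, the CCAAT box, the TATA box with the letters TATAAA and the octamer ATTTGCAT, and none contains another. The last 2 are histone H2B genes.
HEXIM1 (chr17:45148225-45148474, plus strand): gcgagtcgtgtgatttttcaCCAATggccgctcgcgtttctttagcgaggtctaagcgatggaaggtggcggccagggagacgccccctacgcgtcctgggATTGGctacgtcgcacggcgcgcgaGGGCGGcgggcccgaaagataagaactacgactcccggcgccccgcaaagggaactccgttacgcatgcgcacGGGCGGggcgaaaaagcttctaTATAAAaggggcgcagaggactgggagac
SCAND1 (chr20:35955017-35955266, minus strand, the first of 2 entries): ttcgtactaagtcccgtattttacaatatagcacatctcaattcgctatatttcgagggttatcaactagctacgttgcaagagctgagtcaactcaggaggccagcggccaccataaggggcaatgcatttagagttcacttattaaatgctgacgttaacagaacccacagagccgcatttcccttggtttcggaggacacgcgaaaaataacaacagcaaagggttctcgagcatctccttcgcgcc
CCDC85B (chr11:65890423-65890672, plus strand): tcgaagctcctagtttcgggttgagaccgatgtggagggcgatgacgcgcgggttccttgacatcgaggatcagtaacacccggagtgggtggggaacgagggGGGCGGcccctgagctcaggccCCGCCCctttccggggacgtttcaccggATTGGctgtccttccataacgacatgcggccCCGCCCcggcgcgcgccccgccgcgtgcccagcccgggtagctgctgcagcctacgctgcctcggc
CLDN3 (chr7:73770271-73770520, minus strand): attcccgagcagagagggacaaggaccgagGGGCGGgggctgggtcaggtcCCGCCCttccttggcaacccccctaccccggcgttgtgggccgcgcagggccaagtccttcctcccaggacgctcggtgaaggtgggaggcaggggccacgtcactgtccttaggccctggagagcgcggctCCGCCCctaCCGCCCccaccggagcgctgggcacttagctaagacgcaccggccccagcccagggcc
MCRIP1 (chr17:81833292-81833541, minus strand): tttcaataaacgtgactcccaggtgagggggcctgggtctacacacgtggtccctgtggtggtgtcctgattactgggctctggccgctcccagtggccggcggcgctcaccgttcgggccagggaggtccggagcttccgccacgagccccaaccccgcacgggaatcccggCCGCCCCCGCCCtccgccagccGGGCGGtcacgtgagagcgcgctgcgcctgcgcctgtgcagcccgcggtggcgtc
H2BC5 (chr6:26157871-26158120, plus strand, the first of 2 entries): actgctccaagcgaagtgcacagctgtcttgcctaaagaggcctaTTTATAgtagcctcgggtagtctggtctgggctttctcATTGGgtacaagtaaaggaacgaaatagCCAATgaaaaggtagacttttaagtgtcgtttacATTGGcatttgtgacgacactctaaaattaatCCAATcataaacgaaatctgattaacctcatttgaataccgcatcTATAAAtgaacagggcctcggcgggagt
H2BC6 (chr6:26183511-26183760, plus strand): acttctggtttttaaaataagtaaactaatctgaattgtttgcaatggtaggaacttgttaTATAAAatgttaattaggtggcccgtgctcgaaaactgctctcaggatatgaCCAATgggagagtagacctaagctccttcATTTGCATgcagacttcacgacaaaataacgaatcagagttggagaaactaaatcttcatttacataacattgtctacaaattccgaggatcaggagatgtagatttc
GC content was 68.8% for CCDC85B, 71.6% for CLDN3 and 71.6% for MCRIP1, and these windows held 3, 4 and 3 GC boxes. SCAND1 differed from these 3, with 46.4% GC and none of the 4 motifs. Its window lies inside the annotated gene (chr20:35953617-35959472), and its other entry was not examined, so the contrast holds for this start site alone. The CCDC85B and H2BC6 windows also lie inside their annotated genes (chr11:65890112-65891635 and chr6:26172059-26184655). Their values likewise hold for the start sites used alone. The H2BC5 and H2BC6 windows had 42.4% and 36.4% GC and no GC box, and held 4 and 1 CCAAT boxes and 2 and 1 TATA boxes. Counted from the start site, the TATA matches began at -205 and -28 in H2BC5 and at -189 in H2BC6. Matches were counted anywhere in the window. HEXIM1 lay between, at 62.4% GC with 2 GC boxes, 2 CCAAT boxes and a TATA box that begins 29 bases before the start. A GC box was present in 82.7% of the 52 genes among the 65 that had an entry, in 67.7% of the 10754 tested genes with an entry, and in 11.1% of 18 tested histone genes. CCAAT boxes were in 28.8%, 34.6% and 88.9% of the same sets and TATA boxes in 1.92%, 5.17% and 66.7%. The octamer, a known element of H2B promoters, was in 1.92%, 1.30% and 55.6%. PADI2 and FGFBP1, which fell without replicate 2, had windows of 68.0% GC with 5 GC boxes and of 40.8% GC with 1 CCAAT box. A match is a description of the letters and does not show that a factor binds there.

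Without replicate 2 of both groups, 9 genes passed the test in the model of all remaining libraries, 0.0613% of those tested. The 5 higher genes (0.034%) were the histone genes H2BC5, H2BC6 and H2BC4, with MCRIP1, which is also among the 65, and FAM234A, at 62.0% and 61.9% GC. The 4 lower genes (0.0272%) were PADI2, which encodes an enzyme that converts protein arginine to citrulline, DAW1, a factor for assembly of ciliary dynein, CLMP, a cell adhesion protein, and SYTL2, which takes part in vesicle transport. When the 6 libraries were fitted alone, so that the lactate libraries did not enter the spread, 481 genes (3.41%) were higher and 219 (1.55%) lower of 14086 tested, 4.97% in all. The libraries left out were those that departed from the other replicates, so p-values without them do not cover the spread between all replicates. Apart from those 9, no gene described below as rising or falling in the fit of 6 libraries passed in the model of all remaining libraries. Of the 65 genes called as labelled, 57 were among the 481. With the GC trend also removed, 227 (1.61%) were higher and 259 (1.84%) lower, 3.45% in all. Of the 481 higher genes 187 (38.9%) were called again after correction, and of the 219 lower genes 147 (67.1%).

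The library pair left out then gave a measurement that the fit had not used. Of the 219 lower genes, 208 (95.0%) were higher in the library labelled I-BET762 replicate 2 than in the one labelled control replicate 2, and 11 were lower. Over all tested genes 51.2% were higher in that pair. Of the 481 higher genes, 356 (74.0%) were higher in the pair and 125 lower. All 65 genes called with every library were higher in it, with a median log2 difference of 1.02, though these had been chosen with that pair. The falls thus ran against the labels in replicate 2 almost throughout, and the rises mostly with them. After GC correction, 121 of the 227 higher genes (53.3%) and 249 of the 259 lower genes (96.1%) were higher in the pair.

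**Figure D3:**
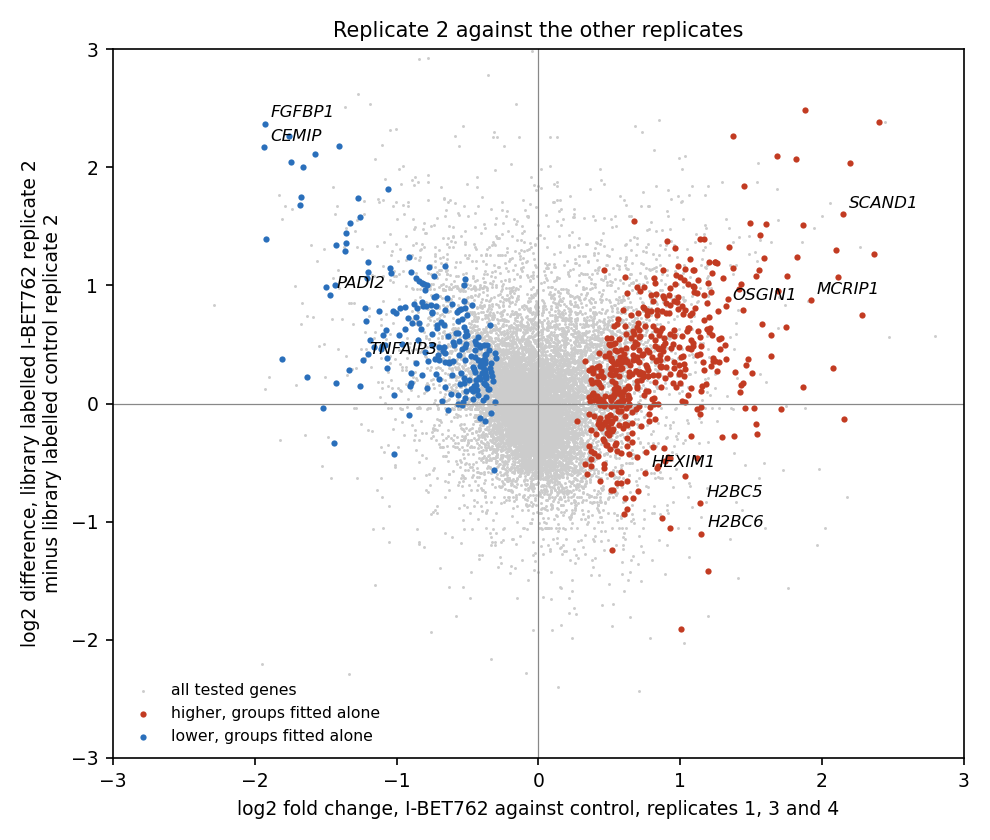
Log2 fold change of I-BET762 against control from replicates 1, 3 and 4 (horizontal) against the log2 difference between the libraries labelled I-BET762 and control in replicate 2 (vertical). Each point is a gene, grey for all tested and coloured for the 481 higher and 219 lower genes of the 6-library fit, and 6 genes lie outside the axes. Blue points lie mostly above 0, at 208 of 219, whereas red points lie on both sides, at 356 above and 125 below.

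Of 19 tested core histone genes of the replication-dependent clusters, 3 rose without replicate 2 in the model of all remaining libraries and 7 in the fit of 6 libraries. The shares of all tested genes that rose in these fits were 0.034% and 3.41%. Their main transcripts end without a poly(A) tail, and these libraries were made from polyadenylated RNA, so the levels are of those transcripts that were captured. H2BC5 (chr6:26158146-26171349) was 15.1, 19.3 and 17.2 CPM in control replicates 1, 3 and 4 and 36.0, 39.7 and 37.8 CPM in the I-BET762 replicates, with 27.6 and 15.3 CPM in the libraries labelled control and I-BET762 replicate 2. H2BC6 was 4.13, 4.66 and 3.97 CPM in those controls and 9.20, 9.80 and 9.32 CPM in the inhibitor libraries, with 8.65 and 3.96 CPM in replicate 2. In both genes the order was the opposite in replicate 2, where the control library was the higher. The log2 fold changes were 1.14 (SE 0.14, edgeR adjusted p = 0.0118) for H2BC5 and 1.15 (SE 0.17, edgeR adjusted p = 0.0367) for H2BC6 without replicate 2, and 0.71 (SE 0.24, adjusted p = 0.17) and 0.60 (SE 0.27, adjusted p = 0.391) with it. H2BC4 had 1.07 (SE 0.18, edgeR adjusted p = 0.0385) without replicate 2 and 0.77 (SE 0.20, adjusted p = 0.0791) with it.

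Of 49 core histone genes on the list, 19 passed the filter and were tested. With all libraries edgeR called 0 of the 19 and their median log2 fold change was 0.49, against -0.03 over all tested genes. Without replicate 2, 3 were called, all higher, with a median of 0.71, and in the fit of 6 libraries 7 were, adding H2AC11, H2BC11, H2BC21 and H4C8 (0.77, 0.44, 0.52 and 0.40 with all libraries). In 14 of the 19 the 3 inhibitor libraries lay above the 3 controls, a share that was 15.5% over all genes. After GC correction without replicate 2 the median was 0.80 and again 7 were called in the 6-library fit, so these rises did not go with GC content as those of the 65 genes did. Of the 9 variant histone genes, H2AX (1.29, SE 0.26, edgeR adjusted p = 0.0345) and H3-3B (0.38, SE 0.08, edgeR adjusted p = 0.0375) rose in the fit of 6 libraries. Of 4 tested linker histone genes, H1-10 and H1-2 did. Over all genes tested in that fit 3.41% rose. After GC correction in that fit H2AX had 0.605 (edgeR adjusted p = 0.0397) and H3-3B 0.41 (edgeR adjusted p = 0.0327). H1-2 had 0.47 (edgeR adjusted p = 0.0383), and H1-10 had 0.34 and no longer passed (edgeR adjusted p = 0.127). Reads of near-identical histone copies may be shared among genes, so single copies are uncertain.

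Of 14 tested genes reported to rise under BET inhibition, 6 were higher in the fit of 6 libraries, HEXIM1, H1-2, H2BC4, H2BC5, H2BC11 and H2BC21. Over all genes tested in that fit 3.41% were higher and 1.55% lower. SAT1, a polyamine-degrading enzyme, was lower at -0.37 (SE 0.09, edgeR adjusted p = 0.0479), and after GC correction it did not pass (edgeR adjusted p = 0.0866). The median of the 14 was 0.40 with all libraries and 0.53 without replicate 2. SERPINI1 was 13.5, 15.2 and 14.7 CPM in control replicates 1, 3 and 4 and 18.1, 19.6 and 19.3 CPM in the inhibitor libraries, and it crossed in replicate 2 at 19.4 and 13.1 CPM. Its log2 fold change of 0.40 (SE 0.11) in the fit of 6 libraries had an edgeR adjusted p of 0.0706. After GC correction in that fit it was 0.49 (SE 0.10, edgeR adjusted p = 0.0397). With that correction 7 of the 14 were higher and 0 lower, where 1.61% of all genes were higher and 1.84% lower. This list overlaps the histone list and was drawn up with earlier results of these data known.

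The 3 largest falls were in FGFBP1, CEMIP and PADI2, among genes called in the fit of 6 libraries that averaged 5 CPM or more. FGFBP1 (chr4:15935569-15938740), whose product frees fibroblast growth factors from the matrix, was 31.3, 26.2 and 23.8 CPM in control replicates 1, 3 and 4 and 8.92, 5.52 and 6.96 CPM in the inhibitor libraries. In replicate 2 the control library held 7.13 CPM and the inhibitor library 37.5 CPM, which is the opposite order. The log2 fold change was -1.92 (SE 0.19, edgeR adjusted p = 0.0149) in the fit of 6 libraries and -0.60 (SE 0.53, edgeR adjusted p = 0.788) with all libraries. CEMIP, a hyaluronan-degrading factor, was 102.7, 186.7 and 150.01 CPM against 16.0, 53.3 and 45.6 CPM, a log2 fold change of -1.93 (SE 0.38, edgeR adjusted p = 0.0329), and of -1.09 (edgeR adjusted p = 0.514) with all libraries. Its replicate 2 libraries stood at 22.5 CPM for control and 101.7 CPM for I-BET762. PADI2 (chr1:17066761-17119435) was 12.8, 10.5 and 11.9 CPM against 3.66, 4.99 and 4.04 CPM, with 5.39 and 10.3 CPM in replicate 2. Its fall passed in both fits without replicate 2, at -1.47 (SE 0.22, edgeR adjusted p = 0.0367) and -1.46 (SE 0.16, edgeR adjusted p = 0.0198), and with all libraries it was -0.83 (edgeR adjusted p = 0.232). All 3 genes crossed in replicate 2.

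The next falls by size in the 6-library fit were ADGRG1, an adhesion receptor gene, at -1.35 (SE 0.17), IL24, a cytokine gene, at -1.32 (SE 0.29), the xanthine dehydrogenase gene XDH at -1.25 (SE 0.19) and TNFAIP3, a feedback inhibitor of NF-kB, at -1.23 (SE 0.15), on the log2 fold change scale. PLAAT4, ACOX2, KCNQ3, BMPER and SYCP2 followed, from -1.20 to -1.10. With all libraries ADGRG1 had -0.57, IL24 -0.78, XDH -0.60 and TNFAIP3 -0.86, at edgeR adjusted p of 0.653, 0.504, 0.62 and 0.133. All 12 genes were higher in the library labelled I-BET762 replicate 2 than in the one labelled control replicate 2, by 0.37 (TNFAIP3) to 2.37 (FGFBP1) on the log2 scale. These 12 came from 175 lower genes that averaged 5 CPM or more and had no overlap between 3 and 3 libraries. After GC correction their log2 fold changes were -1.94 to -0.99. TNC, an extracellular matrix gene, and the lysosomal protease gene CTSL were also lower in that fit, at -1.0 (SE 0.11) and -0.75 (SE 0.07), and had -0.53 and -0.35 with all libraries.

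Among genes at a negative fold change with all libraries, none passed edgeR's test, and the 6 with the smallest p and at least 5 CPM were LRRC34, SOX9, MMACHC, CLMP, MEIS2 and LPAR1. LRRC34 was 9.53, 6.83, 9.52 and 10.5 CPM in control replicates 1 to 4 and 5.46, 6.38, 5.29 and 4.97 CPM with I-BET762, a log2 fold change of -0.72 (SE 0.17, edgeR adjusted p = 0.0622). SOX9, a transcription factor gene of epithelial progenitors, was 13.7, 10.8, 14.1 and 13.97 CPM and then 10.3, 10.9, 7.84 and 8.02 CPM, a log2 fold change of -0.51 (SE 0.14, edgeR adjusted p = 0.0869). Replicate 2 differed little between the labelled groups in these genes, with log2 differences from -0.10 to 0.30. They were ranked in the fit that holds replicate 2 as labelled, which favours genes that do not cross strongly there. In the fit of 6 libraries all 6 were lower, at log2 fold changes of -1.06 (CLMP) to -0.53 (MEIS2).

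Of 18 tested interferon response genes 5 fell in the fit of 6 libraries and none rose, where 1.55% of all genes fell. The median was -0.39 in the model of all remaining libraries and -0.17 with every library, and edgeR called 0 in either. IFI44 was 5.66, 4.60 and 4.18 CPM in control replicates 1, 3 and 4 and 0.90, 1.60 and 1.99 CPM with the inhibitor, a log2 fold change of -1.66 (SE 0.27, edgeR adjusted p = 0.0269), and of -0.84 (edgeR adjusted p = 0.518) with all libraries. MX1, an antiviral GTPase gene, was 25.7, 28.04 and 25.1 CPM and 13.3, 17.5 and 19.5 CPM, a log2 fold change of -0.64 (SE 0.15, edgeR adjusted p = 0.0447), and of -0.29 (edgeR adjusted p = 0.734) with all libraries. OAS3 (-0.62), IFIT1 (-0.72) and OASL (-0.78) were the other genes that fell, on the log2 fold change scale. In replicate 2 all 5 were higher in the library labelled I-BET762, by 0.34 to 1.75 on the log2 scale. After GC correction in the fit of 6 libraries 4 of the list fell, and IFIT1 did not pass (edgeR adjusted p = 0.0574). Of the 18 genes 9 were lower and 1 was higher in all 3 inhibitor libraries than in all 3 controls, shares that were 15.3% and 15.5% over all genes.

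Of 18 tested NF-kB and inflammatory genes, 2 fell in the fit of 6 libraries, TNFAIP3 and the chemokine gene CXCL1 (-0.65, SE 0.12, edgeR adjusted p = 0.0313), and 2 rose, the adhesion receptor gene ICAM1 (0.46, SE 0.09, edgeR adjusted p = 0.0342) and RELB, an NF-kB subunit gene (0.59). Over all genes tested in that fit 1.55% fell and 3.41% rose, shares that also stand beside the other lists of this paragraph. After GC correction in the same fit none of the 18 rose and 3 fell, CXCL1, TNFAIP3 and TNFAIP2, and ICAM1 had 0.34 (edgeR adjusted p = 0.108) and RELB -0.04. ICAM1 stood at 613 to 685 CPM in those controls and 792 to 967 CPM with the inhibitor. Of 9 genes of the epidermal growth factor receptor family and its ligands, 2 fell and both were ligands. EREG was 369, 489 and 422 CPM and then 207, 280.0 and 297 CPM, a log2 fold change of -0.70 (SE 0.14, edgeR adjusted p = 0.0363) that was -0.45 (edgeR adjusted p = 0.243) with all libraries, and EGF had -0.84 (SE 0.20, edgeR adjusted p = 0.0478). After GC correction in the fit of 6 libraries the edgeR adjusted p was 0.0397 for EREG and 0.0607 for EGF, which no longer passed. Of 9 S100 genes tested in that fit, which encode small calcium-binding proteins, 2 fell, S100A2 at -0.65 (SE 0.14) and S100A4 at -0.51. The collagenase gene MMP1 fell too, at -0.85 (SE 0.15, edgeR adjusted p = 0.03). The genes that fell were all higher in the library labelled I-BET762 replicate 2 than in its control, and ICAM1 was lower there, at 613.4 against 757.5 CPM. Of 17 AP-1 and immediate early genes tested in the fit of 6 libraries JUN (0.51), JUNB (1.20) and IER2 (0.53) rose. After GC correction JUN (0.40) rose and MAFF (-0.42) fell, while JUNB had 0.61 (edgeR adjusted p = 0.066) and IER2 0.14 (edgeR adjusted p = 0.361). With all libraries edgeR called 0 members of the NF-kB, growth factor, S100 and AP-1 lists.

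The genes of the pathway that the inhibitor acts on were mostly flat. MYC was 79.2, 73.4, 90.0 and 93.2 CPM in control replicates 1 to 4 and 88.7, 83.1, 97.5 and 91.9 CPM with I-BET762, a log2 fold change of 0.11 (SE 0.11, edgeR adjusted p = 0.841) and of 0.08 (SE 0.12, edgeR adjusted p = 0.868) without replicate 2. FOSL1, an AP-1 subunit that often falls under BET inhibitors, had -0.09 (SE 0.20) with all libraries. Of 9 tested genes reported to fall, 0 were called in any of the 3 fits. The reader gene BRD3 had 0.21 (SE 0.14, edgeR adjusted p = 0.698), and BRD2 was not tested, with at most 3 counts in any library, which was not read as absence of its transcript. Of 26 tested genes of P-TEFb, its inhibitory complex and elongation factors, 2 rose in the fit of 6 libraries, HEXIM1 and NELFB, a subunit of the negative elongation factor (0.68, SE 0.15, edgeR adjusted p = 0.0405). CDK9, the kinase of P-TEFb, had 0.28 (SE 0.09, edgeR adjusted p = 0.0874) in that fit, and its partner CCNT1 had 0.03 (SE 0.09). HEXIM2 was at 2.69 to 4.75 CPM in all 8 libraries, with a log2 fold change of 0.20 (SE 0.25). NELFB, unlike HEXIM1, followed the labels in replicate 2 and went from 0.61 to 0.08 on GC correction. Of the 11 RNA polymerase II subunits, POLR2E and POLR2L rose in the fit of 6 libraries, and of 28 Mediator genes MED11, MED15 and MED16 did, where 3.41% of all genes rose. After GC correction both polymerase genes and MED11 passed in that fit, and MED15 and MED16 did not.

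Genes of proliferation did not pass. None of 24 mitosis genes or 26 DNA replication genes was called by edgeR with all libraries or in the fit of 6, and the mitosis median was -0.18 with all libraries and -0.19 without replicate 2. CCNA2, a cyclin of S phase and mitosis, was 57.9 to 67.7 CPM in control and 49.3 to 58.1 CPM with I-BET762, a log2 fold change of -0.27 (SE 0.10, edgeR adjusted p = 0.244). In 12 of the 24 mitosis genes the 3 inhibitor libraries lay below the 3 controls, which held for 15.3% of all genes whatever their GC content. After GC correction the mitosis median was -0.10 with all libraries and -0.14 without replicate 2, and CCNA2 had -0.175 with all libraries.

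Metabolic genes were examined because the study's title concerns lactate and lipid metabolism. Over all genes tested in the fit of 6 libraries 3.41% rose and 1.55% fell. Of 17 tested genes of lactate and pyruvate transport and entry, BSG was called with all libraries, and BSG and the lactate exporter gene SLC16A3 (0.71) in the fit of 6, where 16 were tested. Of 20 glycolysis genes ALDOA (1.65), PFKL (1.05), PFKP (0.38) and the glucose transporter gene SLC2A1 (0.61) rose in the fit of 6, ALDOA and SLC2A1 also after GC correction, and edgeR called 0 with all libraries. Of 18 genes of fatty acid synthesis, FASN, the fatty acid synthase gene, and SREBF1, a transcription factor gene of lipid synthesis, rose in the fit of 6 libraries, at 1.18 (SE 0.24, edgeR adjusted p = 0.0345) and 0.62 (SE 0.14, edgeR adjusted p = 0.0425). FASN was 411, 225.5 and 348 CPM in control replicates 1, 3 and 4 and 969, 647 and 588 CPM with the inhibitor, and in replicate 2 it was 560 and 715 CPM, in the same order. Both transcripts are rich in GC, at 65.3% and 62.8%, and after correction FASN had 0.56 (edgeR adjusted p = 0.0476) and SREBF1 0.18 (edgeR adjusted p = 0.361). CYP51A1, a sterol synthesis enzyme gene of 41.5% GC, went from 5.47, 4.01 and 4.18 CPM to 18.1, 11.8 and 8.76 CPM, at 1.5 (SE 0.27, edgeR adjusted p = 0.0302), and kept 1.59 after correction. Of 17 lipid droplet genes tested in the fit of 6, the lipase gene PNPLA2 rose (1.18, SE 0.16, edgeR adjusted p = 0.0228) and PLIN2, which coats lipid droplets, fell (-0.59, SE 0.10, edgeR adjusted p = 0.0269). PLIN2 crossed in replicate 2, at 42.5 CPM in control and 61.1 CPM in I-BET762, while PNPLA2 did not. With all libraries FASN had 0.92, SREBF1 0.72, CYP51A1 1.51, PNPLA2 0.94 and PLIN2 -0.33, and edgeR called none of the 5. The median over each of these lists lay between -0.05 and 0.11 in the fits with all libraries and without replicate 2.

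**Figure D4:**
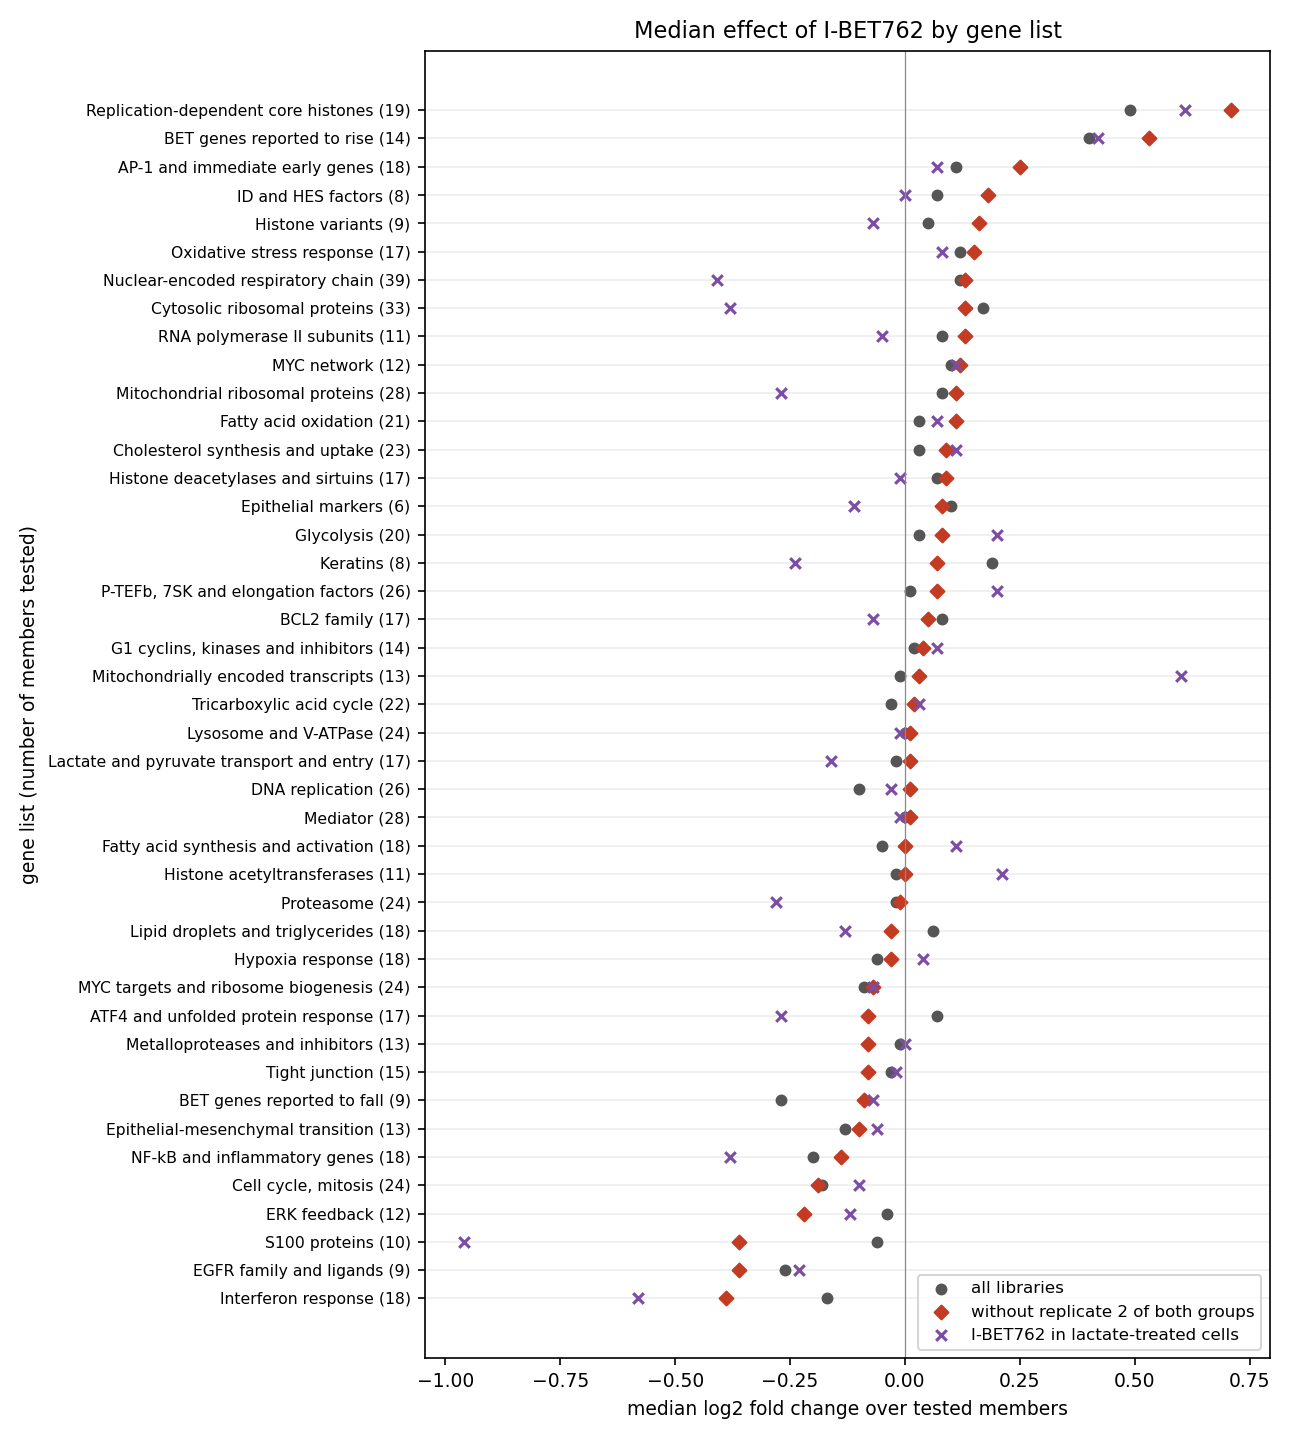
Median log2 fold change over the tested members of each gene list (number tested in parentheses) with all libraries (circles), without replicate 2 of both groups (diamonds) and for the inhibitor in lactate-treated cells (crosses). Core histones lie at 0.49, 0.71 and 0.61 and interferon response genes at -0.17, -0.39 and -0.58, while medians over all tested genes are -0.03, -0.03 and 0.

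Of the 12 largest rises without replicate 2, 9 were genes called with every library, and ALDOA, CHTF18 and RAVER1 were not (1.37, 1.24 and 1.34 with all libraries). The 12 largest of 437 higher genes that averaged 5 CPM or more without overlap were SCAND1, CCDC85B, MCRIP1, CLDN3, BBLN, TEDC1, ALDOA, CHTF18, MIB2, RAVER1, MMP17 and EGFL7, with log2 fold changes from 2.16 to 1.57 in the fit of 6 libraries. All 12 were higher in the library labelled I-BET762 replicate 2 as well, by 0.40 (CHTF18) to 1.60 (SCAND1) on the log2 scale. Their GC contents were 54.3% (ALDOA) to 69.2% (CLDN3). After correction 8 of the 12 passed in the fit of 6 libraries, SCAND1, CCDC85B, MCRIP1, BBLN, TEDC1, MIB2, EGFL7 and ALDOA.

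The inhibitor given to lactate-treated cells offered 8 further libraries. No gene passed edgeR's test there, although 944 genes (6.43%) were higher and 1350 (9.19%) lower at unadjusted p under 0.05. DESeq2 called 23 higher and 80 lower, and limma-voom 0. Of the 219 genes that fell in the 6-library fit, 217 were lower in these libraries too, 152 (69.4%) of them at unadjusted edgeR p under 0.05, with a median of -0.56. In 118 of the 219 the 4 libraries with both agents lay below all 4 with lactate, which held for 3.78% of all genes. Of the 481 that rose, 459 were higher here, 70 of them without overlap (3.82% of all genes were), 193 (40.1%) at unadjusted edgeR p under 0.05, with a median of 0.36. Of the 65 genes called with all libraries as labelled, 62 were higher, 14 (21.5%) at unadjusted edgeR p under 0.05, with a median of 0.28.

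FGFBP1 went from 102.1, 53.0, 34.2 and 48.2 CPM with lactate to 17.7, 12.2, 10.7 and 12.2 CPM with both agents, a log2 fold change of -2.16 (SE 0.54, edgeR adjusted p = 0.221). H2BC6 went from 3.36, 5.02, 4.42 and 3.42 CPM to 10.9, 11.6, 9.84 and 10.6 CPM, a log2 fold change of 1.39 (SE 0.28, edgeR adjusted p = 0.221). PADI2 went from 12.7, 19.0, 20.9 and 19.0 CPM to 7.15, 8.51, 10.9 and 10.8 CPM, at -0.94 (SE 0.30, edgeR adjusted p = 0.242). None of the 3 genes overlapped between the groups, though none passed the adjusted threshold. Of the GC-rich genes, MCRIP1 had 0.85 (SE 0.26, edgeR adjusted p = 0.236) and SCAND1 0.49 (SE 0.34, edgeR adjusted p = 0.457). SCAND1 stood at 13.1 to 21.7 CPM with lactate alone, already above the control level. The histone list had a median of 0.61 with 17 of 19 genes higher, and the interferon list -0.58 with 16 of 18 lower. The S100 list had -0.96 with all 10 lower. Over all tested genes 49.9% were higher and 50.1% lower. Other lists had unlike medians here and against control. Mitochondrially encoded transcripts had 0.60 with 12 of 13 higher, against -0.01 with all libraries in the comparison with control. Nuclear-encoded respiratory chain genes had -0.41 with 34 of 39 lower, against 0.12. Cytosolic ribosomal protein genes had -0.38 with 32 of 33 lower, against 0.17.

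The difference of the inhibitor's effect between cells with and without lactate was tested as an interaction, and edgeR called 0 genes. At unadjusted edgeR p under 0.05 there were 180 higher (1.23%) and 714 lower (4.86%), and DESeq2 and limma-voom called 0. HEXIM1, H2BC5, FGFBP1 and PADI2 had unadjusted interaction p-values of 0.129, 0.37, 0.0508 and 0.8 in edgeR, and SCAND1 had 0.00821. The interaction uses the replicate 2 libraries as labelled. Neither a shared nor a different effect was shown for any gene by this test.

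**Figure D5:**
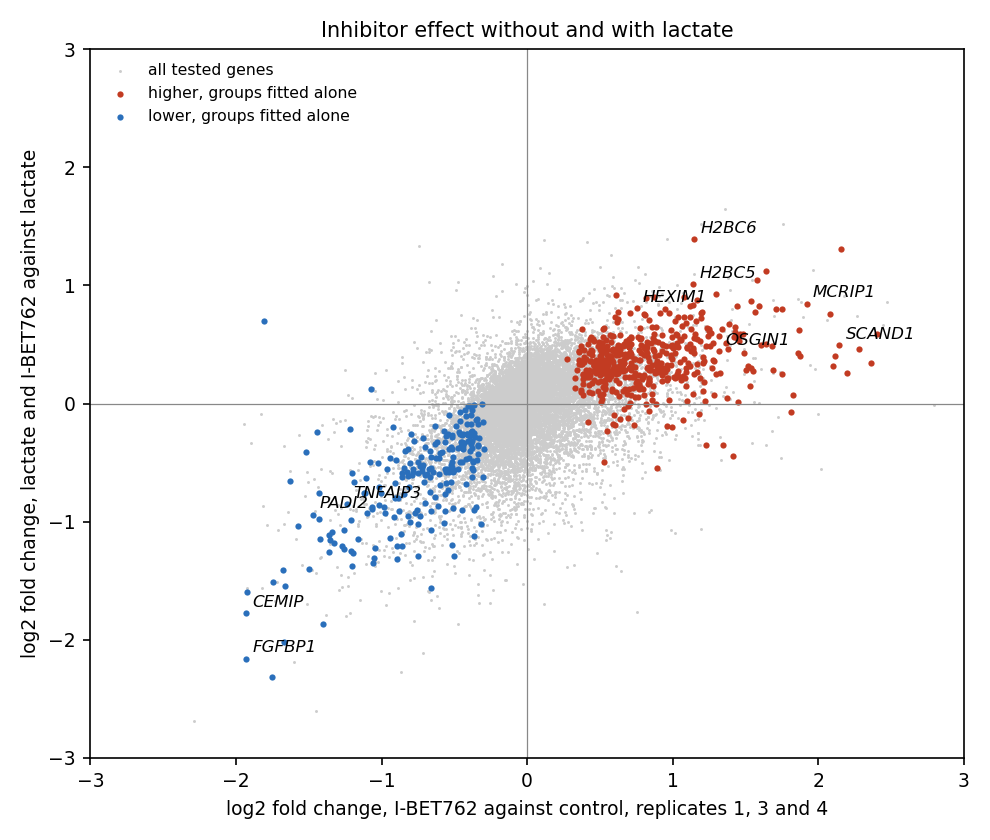
Log2 fold change of I-BET762 against control from replicates 1, 3 and 4 (horizontal) against the log2 fold change of lactate with I-BET762 over lactate alone (vertical). Each point is a gene, coloured for the 481 higher and 219 lower genes of the 6-library fit, and 3 genes lie outside the axes. Of the blue points 217 of 219 lie below 0 and of the red points 459 of 481 lie above it.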

How the data were processed

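Polyadenylated RNA of 16 DU145 samples was sequenced as single-end 75 base reads from a directional kit, per the labels' protocols. The authors deposited whole-number counts for 64792 Ensembl identifiers. STAR 2.6.1c, DESeq and the builds GRCh38.p12 and hg38 are named in the submitters' processing notes, while how reads were counted, with which annotation and whether by strand, is not given in the sources read. An unstranded count would mix a gene with its antisense partner. Symbols, coordinates, exon lengths and transcript GC content came from GENCODE v29 and the gene name tables, and GC content was known for 99.37% of tested genes.

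Counts were fitted in 1 model of 4 groups with edgeR 4.0.16 in R 4.3.3 (TMM scaling, at least 10 counts in the smallest group and 15 in total, quasi-likelihood test). The model had 12 residual degrees of freedom and a biological coefficient of variation of 0.183. Benjamini-Hochberg adjustment ran over all 14690 genes, and called means adjusted p under 0.05. CPM are on TMM-scaled library sizes and are given with the SD. The GC correction entered each library's lowess trend on GC content (span 0.3) as an offset. DESeq2 1.42.0 and limma-voom (limma 3.58.1) were alternatives, and 2 settings that join the GC correction with the loss of replicate 2 were added after seeing the data. The procedure was tested on simulated data. Trends per library were compared by exact permutation of library values. At most 0.18% of counts lay outside tested genes. Totals of 13300345 to 16847884 counts stand behind the 8 libraries compared, and the SD between libraries includes counting error.

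Same-numbered libraries were checked for pairing. Their deviations correlated at 0.16, -0.26, 0.30 and 0.06 for replicates 1 to 4, so the numbers were not taken to pair libraries. Deviations were from group means that include the departing replicate 2 libraries, so this check cannot exclude pairing.

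The members and the 51 gene lists (921 of 924 entries matched) were chosen with earlier results of these data known. Named genes were a set of BET inhibitor markers and pathway genes whatever their result, all genes called with every library, the 12 largest changes each way at 5 CPM or more without overlap (with all libraries and in the 6-library fit), the 6 lower genes with the smallest p, and called members of the lists. An item of this rule is not reported here.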

Additional observations from a re-analysis of the deposited data

Results flagged for a closer look

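In groups of 4 libraries, 9 of 84 sets of values had a highest or lowest library whose gap to its nearest neighbour exceeded Dixon's 95% critical value for the share of the group's range. Chance alone flags about 1 in 20 independent sets, but these sets share libraries. FGFBP1 and ADGRG1 were among genes named because a fit without replicate 2 called them, which favours genes in which replicate 2 stands apart. The share flagged is therefore a description and not a test.

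Replicate 2 was the outlying library in 8 of the 9. HEXIM1 was highest in the library labelled control replicate 2 at 135.1 CPM, and H2BC6 was highest there too at 8.6 CPM. SOX9 was lowest in that library at 10.8 CPM. In the library labelled I-BET762 replicate 2, H2BC5 was lowest at 15.3 CPM and H2BC6 was lowest at 4 CPM. In the same library FGFBP1 was highest at 37.5 CPM, TNC at 167.3 CPM and ADGRG1 at 18.2 CPM. The ninth was the rank correlation of expression deviation with exon length in control replicate 4, lowest at 0.03.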

How the results depend on the processing

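The count of 65 genes called with all libraries was 75 with RLE size factors, 0 with total counts alone, 492 without a filter on low counts, 133 with a mean of at least 5 CPM, 496 when both groups were fitted alone, 542 in DESeq2, 0 in limma-voom, and 0 after correction for GC content or for GC content and exon length. Leaving out single libraries gave 0 to 279. Without replicate 2 of both groups the counts were 9 in the model of all remaining libraries, 700 in the fit of 6 libraries, and 15 and 486 with the GC correction added. With the replicate number as a block the count was 206, it was 295 in the 2 groups alone with the block, and 0 with the block and the GC correction. Of 8 libraries 1 correlated best with its own number, so the block rests on numbers that this check did not bear out as pairs. Replicate 2 entered that check, which cannot exclude pairing.

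For the inhibitor in lactate-treated cells, where 0 genes were called, the count was 197 (36 higher, 161 lower) without a filter, 2 with the groups fitted alone and 103 in DESeq2, and the interaction count was 3 without a filter. The difference in GC trend of 0.434 was 0.385 to 0.505 without single libraries. It was 0.401 without replicate 2 of both groups, where the smallest exact permutation p possible is 0.1.

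Of 3374 single-gene values under alternatives, 2242 kept direction and side of the threshold, 891 lost the threshold, 225 gained it and 16 turned direction, all in genes not called. FOSL1 was -0.14 to 0.03 without single libraries, above 0 without control replicate 4. CCNT1 was 0.06 after GC correction, 0.07 with length or the block added, -0.08 to 0 without single libraries (0 without control replicate 3), 0.03 in both fits without replicate 2 and 0.13 in both with GC correction. HEXIM2 was -0.11 after GC correction (with length too), -0.09 with the block added, and -0.12 and -0.13 without replicate 2. LARP7 was 0.01 in the GC-corrected fits without replicate 2. The cause was not tested. Of 1080 list medians, 965 moved by less than their spread.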
